A study of Homo sapiens with 20 samples.

Results

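The LILR and LAIR genes form a cluster of leukocyte receptor genes on chromosome 19, and the binding of the transcription factor RUNX1 around 10 of them was followed when PU.1 was lowered in leukemia cells. The 10 genes were 4 LILRB genes (LILRB1, LILRB2, LILRB3 and LILRB4), 4 LILRA genes (LILRA1, LILRA2, LILRA5 and LILRA6) and 2 LAIR genes (LAIR1 and LAIR2). All RUNX1 peaks within 50 kb of the GRCh38 RefSeq span of any of these genes were taken, which gave 18 of the 26642 peaks of the study. They are numbered 1 to 18 in their order along the chromosome, over a stretch of 496 kb. Gene names and spans came from the RefSeq table of assembly GRCh38.p14.

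RUNX1 binding was measured by chromatin immunoprecipitation with sequencing (ChIP-seq) in the THP-1 line, which was established from a human acute monocytic leukemia. The knockdown cells carried a doxycycline-inducible shRNA against PU.1, a transcription factor of the ETS family encoded by SPI1, and the control cells carried a scramble shRNA, with doxycycline given to both. The 12 RUNX1 libraries were used, out of 20 samples, and the other 8 samples (immunoprecipitated with IgG) were not analysed here. The libraries came from 2 experimental rounds, called batches in the labels, with 3 control and 2 knockdown libraries in batch 1 and 3 control and 4 knockdown libraries in batch 2. Libraries of a group were replicates of a cell line, so p-values measure the spread between such replicates. Between 630247 and 1199004 reads fell into peaks in a control library and between 938745 and 1719840 in a knockdown library. The counts carry no RNA or protein measurement, so neither the PU.1 level nor the expression of any receptor was seen in these data.

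LILRB receptors sit on monocytes and other leukocytes and carry inhibitory tyrosine motifs (ITIMs) in their cytoplasmic tails that recruit the phosphatases SHP-1 and SHP-2. Most LILRA receptors have short tails and signal through the activating adaptor FcRγ, and several receptors of both kinds bind MHC class I molecules. LAIR1 is an inhibitory receptor for collagen, and LAIR2 is a secreted relative that binds the same ligand. RUNX1 and PU.1 are both regulators of myeloid genes.

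Upstream sequence was available for 15 annotated starts of 8 of the 10 genes, and 3 of these starts lay within a RUNX1 peak, 1 of LILRA1 and 2 of LAIR1. The 250 bases before these 3 starts are printed here because they are the only starts of the 15 that lay under a measured peak, together with the matching stretch of LILRB1, which is the most similar in sequence to that of LILRA1 but lay under no peak. The sequences are from RefSeq (GRCh38.p14) and are written 5′ to 3′ on the strand of the gene. LILRA1 is chr19:54593382-54593631 on the plus strand, LILRB1 is chr19:54630234-54630483 on the plus strand, the outer of the 2 LAIR1 starts is chr19:54370559-54370808 on the minus strand and the inner one is chr19:54364932-54365181 on the minus strand. Capitals mark the letters TGTGGT and TGCGGT (2 forms of the RUNX motif), GGAAGT (an ETS core) and GAGGAA (a core found in PU.1 sites), on either strand.
LILRA1 upstream: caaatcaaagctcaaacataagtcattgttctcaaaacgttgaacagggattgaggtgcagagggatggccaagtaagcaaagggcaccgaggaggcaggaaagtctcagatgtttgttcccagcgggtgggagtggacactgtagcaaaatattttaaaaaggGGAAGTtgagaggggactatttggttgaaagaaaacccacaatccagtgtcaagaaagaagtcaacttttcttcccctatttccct
LILRB1 upstream: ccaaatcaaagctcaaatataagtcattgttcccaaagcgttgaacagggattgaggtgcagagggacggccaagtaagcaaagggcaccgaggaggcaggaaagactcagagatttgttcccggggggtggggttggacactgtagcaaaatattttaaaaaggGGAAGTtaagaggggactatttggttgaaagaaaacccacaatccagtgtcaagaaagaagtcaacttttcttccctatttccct
LAIR1 outer start, upstream: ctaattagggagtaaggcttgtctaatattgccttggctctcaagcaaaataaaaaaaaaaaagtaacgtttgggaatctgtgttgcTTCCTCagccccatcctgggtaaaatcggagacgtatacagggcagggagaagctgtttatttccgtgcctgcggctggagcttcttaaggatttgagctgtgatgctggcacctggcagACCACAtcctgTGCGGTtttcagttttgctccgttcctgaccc
LAIR1 inner start, upstream: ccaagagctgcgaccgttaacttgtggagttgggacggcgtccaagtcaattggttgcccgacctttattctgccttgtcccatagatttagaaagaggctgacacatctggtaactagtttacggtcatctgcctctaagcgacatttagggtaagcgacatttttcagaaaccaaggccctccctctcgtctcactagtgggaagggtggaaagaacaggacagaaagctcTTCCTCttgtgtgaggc

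The LILRA1 stretch was identical to that of LILRB1 at 94.8% of positions, to that of LILRB2 at 90.8% and to that of LILRA5 at 72.4%, over the best global alignment. GGAAGT stood 86 bases before the start in LILRA1, LILRB2 and LILRA5 and 85 bases before it in LILRB1. Neither RUNX form was found in these 250 bases of LILRA1, whereas the stretch of the outer LAIR1 start held both of them, 43 and 32 bases before the start. Across the 15 starts, 8 stretches held GGAAGT and 3 held a RUNX form. Some stretches of a gene overlap and share a site, so that these were 5 and 2 genes, while the shares over all RefSeq entries count stretches. Among all 35116 RefSeq stretches of this length, 19.5% held GGAAGT, 23.6% held GAGGAA and 16.3% held either RUNX form. Among the 15, GAGGAA stood in the stretches of LILRB3, LILRA5, LILRB4 and both LAIR1 starts. These letters were chosen after the values were seen, and a match or its absence is a description of the letters in this window.

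Of the 18 peaks, 9 passed the test between knockdown and control, 7 of them lost and 2 gained upon knockdown (DESeq2 with batch as a covariate, adjusted p under 0.05 and fold change over 1.1). Over all 26642 peaks 42.0% were called, 20.7% lost and 21.3% gained. With edgeR the cluster also had 9 calls, against 47.1% of all peaks. The share called in the cluster was thus close to that of all peaks, with 7 lost against 2 gained. The median log2 fold change (knockdown over control) was -0.17 in the cluster and -0.025 over all peaks. Of the 18 values 12 lay below 0, as did 13842 of the 26642 over all peaks. In all 7 lost peaks every knockdown library lay below every control library of its batch, which was so for 13.9% of all peaks and, among the 5519 peaks lost in the whole table, for 3580. Neither gained peak was free of overlap between the groups, while 14.4% of all peaks had every knockdown library above every control library of its batch, as had 3717 of the 5666 gained peaks of the whole table.

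**Figure D1:**
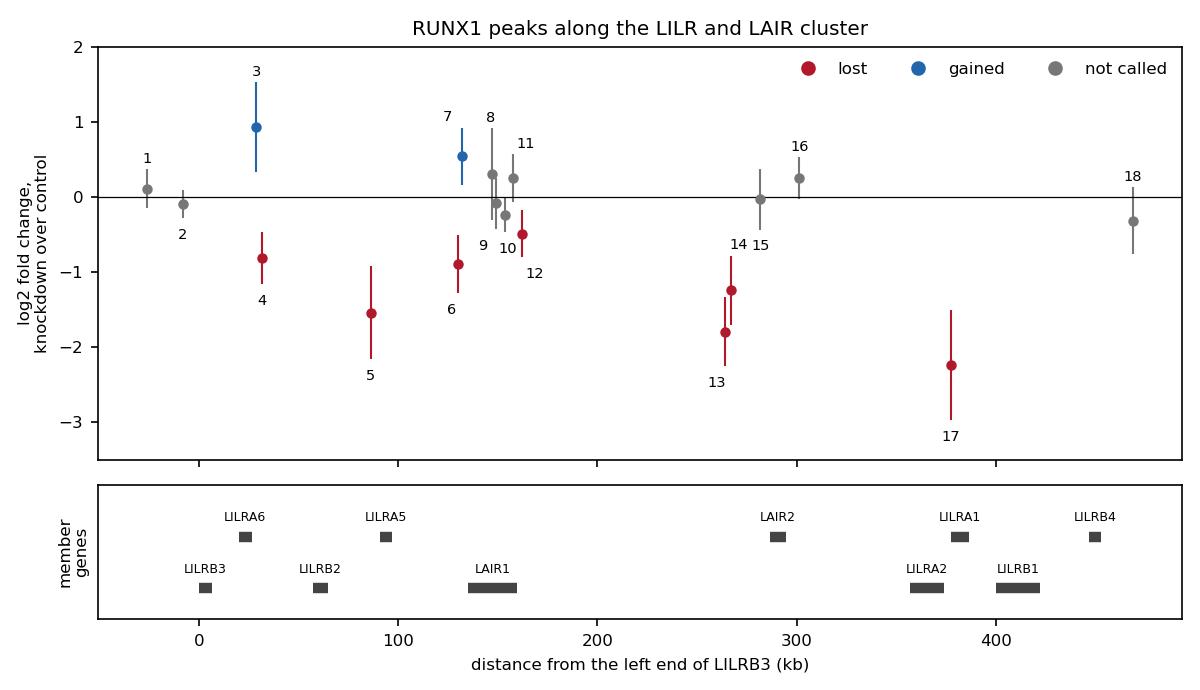
RUNX1 peaks along the cluster. The upper panel gives the log2 fold change of each of the 18 peaks (knockdown over control, points) with its 95% interval (lines) against the distance from the left end of LILRB3 in kb, and the lower panel shows the spans of the 10 genes. Lost peaks (red) lie between LILRA6 and LILRB5, near LILRA5, on both sides of LAIR1, between CDC42EP5 and LAIR2 and at LILRA1. LILRB5 and CDC42EP5 are not among the 10 genes. The 4 peaks inside LAIR1 (peaks 8 to 11) are not called.

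The peaks clustered unevenly around the genes. LAIR1 had 8 peaks within 50 kb and 4 within its span of 24705 bp, whereas only 1 peak lay within 50 kb of LILRA1, of LILRA2 and of LILRB4. LAIR1 and LILRA1 were the only members whose span held or touched a peak, and the other 8 members had none. How reads that match several similar genes were handled was not given in the sources used here. The lack of a peak over such a gene is thus not shown to be a lack of RUNX1. Long stretches without a peak lay between peaks 12 and 13 (101.08 kb), 16 and 17 (75.33 kb) and 17 and 18 (90.5 kb). The called peaks were narrower than the uncalled ones, with a median width of 678 bp against 1125 bp, and over all peaks these medians were 828 and 938 bp.

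At the start of LILRA1, which encodes an activating receptor, lay peak 17 (chr19:54593275-54593902), the peak with the largest fold change of the cluster. Its normalised count, the read count divided by the size factor of the library, was 36.4, 15.8 and 20.7 in the control libraries of batch 1 and 17.3, 18.8 and 24.2 in those of batch 2. In the knockdown it was 11.9 and 3.95 in batch 1 and 1.19, 3.30, 3.19 and 3.73 in batch 2. All 6 knockdown libraries were thus lower than all 6 control libraries, and knockdown replicate 1 was the highest of the knockdown libraries. The mean fell from 22.2 ± 7.53 to 4.54 ± 3.72 (SD, n = 6 each), a log2 fold change of -2.24 ± 0.37 (SE, adjusted p = 3.1e-08, DESeq2), or 4.89-fold lower.

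The counts behind this peak were small, with 10 to 28 reads per control library and 1 to 13 per knockdown library. Over the libraries of both groups together, 6.72% of all peaks had a mean level no higher than this one. Within batch 1 the log2 fold change was -1.64 (adjusted p = 0.0528, not called) and within batch 2 it was -2.78 (adjusted p = 1.5e-05). The difference between the batches did not pass the test (unadjusted p = 0.147 for the product of genotype and batch, DESeq2). The peak was also the nearest to LILRA2, an activating receptor gene whose span ended 2988 bp away, and to LILRB1, an inhibitory receptor gene at a distance of 22420 bp. The sequence before LILRA1 is 94.8% identical to that before LILRB1, and how reads that match more than one such copy were handled was not given in the sources used here, so the placement of reads at this peak is uncertain.

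LILRA5 encodes another activating receptor, and its nearest peak was peak 5 (chr19:54302235-54302790), 4.28 kb past the far end of the gene and 21125 bp from LILRB2. The normalised count lay between 15.6 and 26.3 (median 22.6) in control libraries and between 3.19 and 12.5 (median 6.91) in knockdown libraries. The groups did not overlap. The mean was 21.7 ± 4.24 in the control and 7.30 ± 3.08 in the knockdown, 2.97-fold lower (log2 fold change -1.54 ± 0.31, adjusted p = 7.4e-06). It was called in batch 2 alone (-1.81, adjusted p = 0.0016) and not in batch 1 alone (-1.20, adjusted p = 0.121).

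A pair of peaks between LILRA6, an activating receptor gene, and LILRB5, a related gene outside the 10, went in opposite directions. Peak 3 (chr19:54244938-54245514), 2.15 kb from LILRA6, was at 7.03 to 22.5 (median 9.41) in control libraries and at 13.2 to 35.6 (median 22.2) in knockdown libraries. It was gained with a log2 fold change of 0.93 ± 0.31 (adjusted p = 0.0079), although control replicate 4, at 22.5, lay among the knockdown libraries. Peak 4 (chr19:54247563-54248585), 2.05 kb further on and 0.84 kb from an end of LILRB5, was at 47.2 to 58.6 (median 52.0) in control libraries and at 23.3 to 37.0 (median 29.6) in knockdown libraries. The groups of this neighbouring peak did not overlap. Its log2 fold change was -0.81 ± 0.18 (adjusted p = 3.9e-05).

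As both peaks were counted in the same libraries, their ratio does not depend on the size factors. Peak 4 exceeded peak 3 by 2.30 ± 0.67 on the log2 scale in control libraries (1.11 to 3.06) and by 0.47 ± 0.47 in knockdown libraries (-0.04 to 1.23, SD, n = 6 each). The ranges of the log2 ratio overlapped, with control replicate 4 (1.11) below knockdown replicate 2 (1.23). This pair was picked for its opposite calls in these libraries, so the direction of the shift follows from the calls. Without control replicate 5 the call of peak 3 was lost (adjusted p = 0.0538).

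LAIR1, the inhibitory collagen receptor gene, was flanked by called peaks on both sides. Past its far end lay peak 6 (chr19:54345521-54346611, 4.77 kb from the gene) and peak 7 (chr19:54347993-54348670, 2.71 kb from it), again in opposite directions. Peak 6 was at 39.2 to 66.1 (median 50.002) in control libraries and at 16.6 to 37.6 (median 26.8) in knockdown libraries, with a log2 fold change of -0.89 ± 0.20 (adjusted p = 4.4e-05). These groups did not overlap. Peak 7 was at 26.0 to 52.1 (median 33.2) in control libraries and at 36.3 to 64.1 (median 53.5) in knockdown libraries, with a log2 fold change of 0.54 ± 0.20 (adjusted p = 0.0155).

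The libraries of peak 7 overlapped between the groups, it was called in neither batch alone, and without control replicate 6 its call was lost (adjusted p = 0.0573). The log2 ratio of peak 6 over peak 7 was 0.54 ± 0.30 in control libraries (0.13 to 0.97) and -0.93 ± 0.65 in knockdown libraries (-1.95 to -0.16), without overlap. The pair was picked for its opposite calls in these libraries, so the direction of this shift follows from the calls. Opposite neighbours were not particular to the cluster. Of 399 pairs of neighbouring called peaks at most 2.5 kb apart in the whole table, 106 (26.6%) went in opposite directions, and of 3 such pairs in the cluster 2 did. The limit of 2.5 kb was chosen after the values were seen.

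On the other side, 1.84 kb before the gene, lay peak 12 (chr19:54377924-54378933). Control libraries were at 50.6 to 71.1 (median 55.8) and knockdown libraries at 33.3 to 45.7 (median 44.0). Its groups did not overlap, and the change was the smallest among the 7 lost peaks, with a log2 fold change of -0.49 ± 0.16 (adjusted p = 0.0082). The values were alike in the batches (-0.50 and -0.47), though neither batch alone gave a call.

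The 4 peaks within LAIR1 were not called. Peak 10 (chr19:54369085-54370961), over the outer start, was the highest of them, at 84.98 to 126.7 (median 113.3) in control libraries and at 88.2 to 105.7 (median 93.6) in knockdown libraries. Its log2 fold change was -0.24 ± 0.12 (95% interval -0.47 to -0.01, adjusted p = 0.0884), and without control replicate 4 it passed the test (-0.31, adjusted p = 0.0387). Peak 9 (chr19:54364680-54365804), over the inner start, was at 34.8 to 65.1 in control and at 40.3 to 53.5 in knockdown libraries.

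The interval of peak 9 ran from -0.42 to 0.25 on the log2 scale, that of peak 8 (chr19:54363181-54363880) from -0.30 to 0.92 and that of peak 11 (chr19:54373474-54374791) from -0.07 to 0.57. None of the 3 passed the test, and each interval held 0. Peak 8 was among the weaker peaks of the cluster, with means of 13.9 ± 3.70 in the control and 16.6 ± 6.54 in the knockdown. Reads were counted at peaks 9 and 10, over the 2 LAIR1 starts, in every library of both groups. The IgG libraries were not set beside them.

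**Figure D2:**
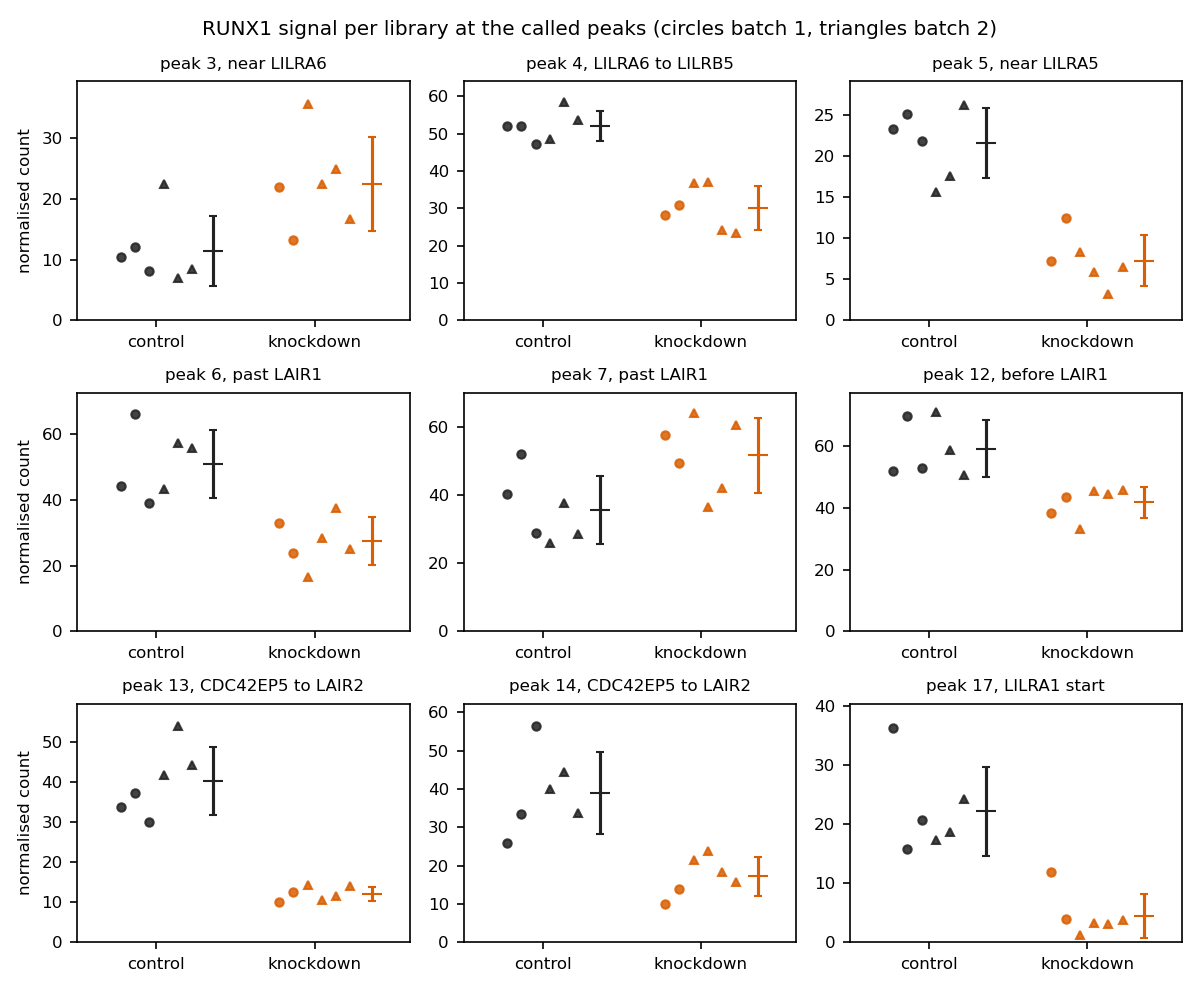
Normalised count (vertical axis, from 0) in each library at the 9 called peaks, for control (grey) and knockdown (orange), with circles for batch 1, triangles for batch 2 and bars for the mean ± SD (n = 6). The groups are apart in the 7 lost peaks and overlap in the 2 gained peaks 3 and 7.

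On the lower-coordinate side of LAIR2, the gene of the secreted collagen-binding relative, peaks 13 and 14 were lost side by side. Peak 13 (chr19:54480009-54480547) lay 22.28 kb from LAIR2 and 6.71 kb from CDC42EP5, which encodes a protein that binds the small GTPase CDC42. Its normalised count was 33.8, 37.2 and 30.0 in the control libraries of batch 1 and 41.6, 53.9 and 44.2 in those of batch 2. In the knockdown it was 10.0 and 12.5 in batch 1 and 14.3, 10.6, 11.5 and 13.98 in batch 2. The knockdown libraries were tightly grouped, and the highest of them was below the lowest control library.

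The mean of peak 13 fell from 40.1 ± 8.51 to 12.1 ± 1.75, which was 3.31-fold lower (log2 fold change -1.79 ± 0.23, adjusted p = 5.9e-13). This was the smallest adjusted p of the cluster. Peak 14 (chr19:54482728-54483449), 2.18 kb further on, was at 26.0 to 56.5 (median 36.8) in control libraries and at 10.0 to 23.8 (median 17.2) in knockdown libraries. Its groups were also apart, with a log2 fold change of -1.24 ± 0.23 (adjusted p = 1.2e-06), 2.26-fold lower.

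With DESeq2, peaks 13 and 14 were the only ones called in both batches taken alone. The calls of batch 1 rest on few libraries, and none was left there without control replicate 3, knockdown replicate 1 or knockdown replicate 2. Peak 13 had log2 fold changes of -1.55 (adjusted p = 0.0133) and -1.93 (adjusted p = 8.3e-08), and peak 14 had -1.67 (adjusted p = 0.0091) and -0.98 (adjusted p = 0.0072). Both closer neighbours of LAIR2 were uncalled. Peak 15 (chr19:54497573-54498431, 4.4 kb from the gene) had means of 35.0 ± 11.1 and 35.5 ± 6.06, with an interval of -0.43 to 0.38 on the log2 scale. Peak 16 (chr19:54517082-54517946, 6.4 kb from it) had means of 67.5 ± 12.8 and 82.6 ± 12.2, with an interval of -0.03 to 0.53.

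The 4 LILRB genes, all of inhibitory receptors, had no peak within their spans, with the limit given above for reads that match several similar genes. The nearest peak to LILRB3 was peak 2 (chr19:54207436-54209289), 6.99 kb away, which overlapped RPS9, a gene of the small ribosomal subunit. It was at 133.5 to 193.6 (median 172.4) in control libraries and at 148.2 to 179.1 (median 153.4) in knockdown libraries, and the log2 fold change was -0.09 ± 0.09 (95% interval -0.28 to 0.09, adjusted p = 0.443). Peak 1 (chr19:54189008-54191816) overlapped the facing ends of MBOAT7, a lipid acyltransferase gene, and TSEN34, a gene of the tRNA splicing endonuclease, and it was not called (0.11 ± 0.13, adjusted p = 0.522). These were the strongest peaks of the cluster by mean normalised count, and both lay over genes outside the receptor family.

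LILRB2 shared peak 5 and LILRB1 shared peak 17 as their nearest peaks, both lost. LILRB4, whose receptor is known from monocytic leukemia cells, had a single peak within 50 kb, peak 18 (chr19:54684398-54685047), 15.68 kb past its far end. Control libraries were at 20.7 to 39.9 (median 25.7) and knockdown libraries at 15.5 to 26.1 (median 21.8), with overlap. The log2 fold change was -0.31 ± 0.23 (95% interval -0.76 to 0.13, adjusted p = 0.272).

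**Figure D3:**
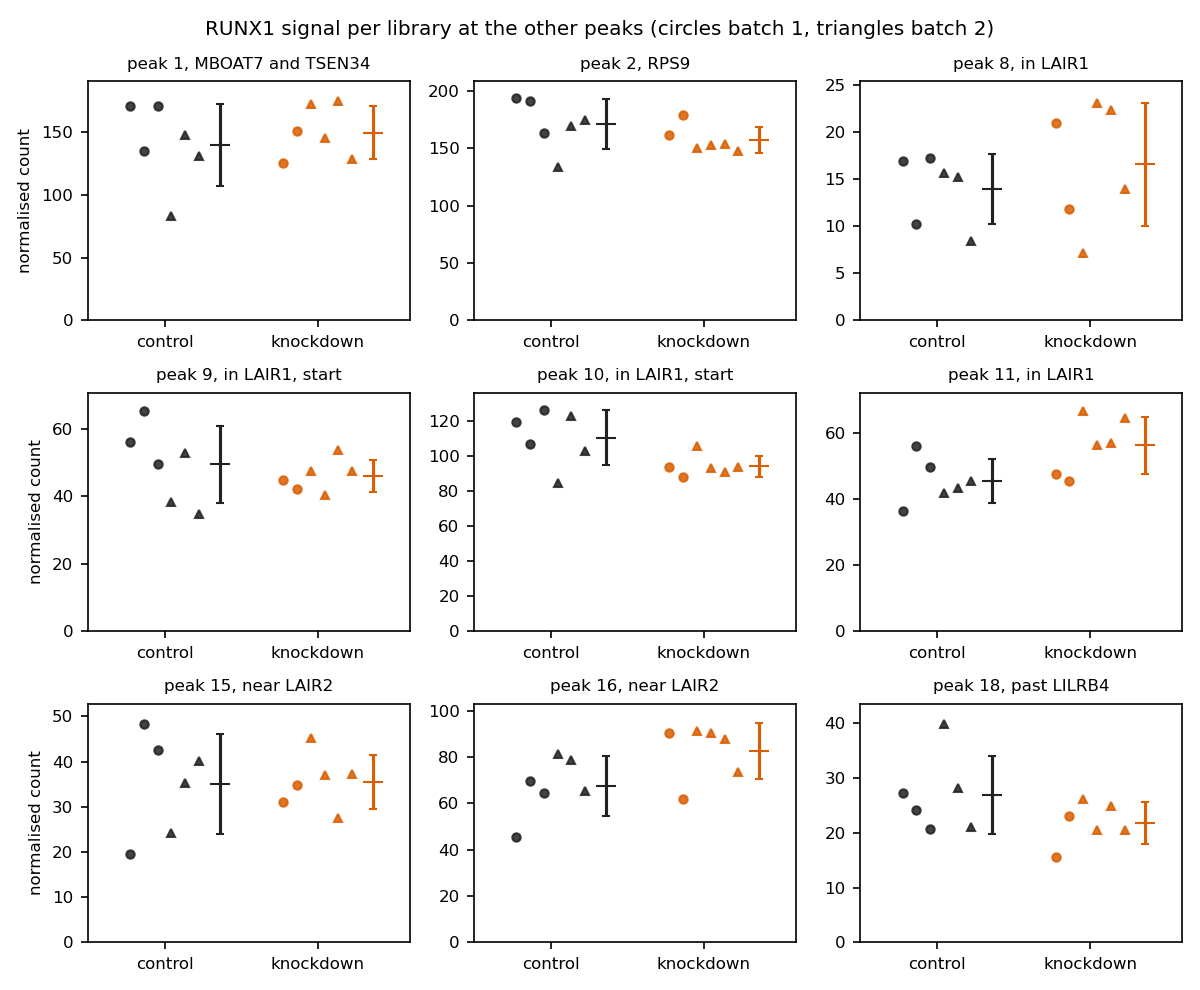
Normalised count (vertical axis, from 0) in each library at the 9 uncalled peaks, drawn as for the called peaks with circles for batch 1, triangles for batch 2 and bars for the mean ± SD (n = 6). Control and knockdown overlap in every panel.

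The level per length also varied along the cluster. Over all 12 libraries, the mean normalised count per kb of peak width was highest at peaks 2 (88.7), 16 (86.8) and 7 (64.3). It was lowest at peaks 17 (21.3), 8 (21.8) and 5 (26.0). These means include the knockdown libraries, so a loss lowers them. In control libraries, the mean normalised count of the lost peaks 17 (22.2) and 5 (21.7) was above that of peaks 3 (11.4) and 8 (13.9). Reads per library were few at each of these.

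Summed over the 18 peaks, the normalised count was 992 ± 73.3 in control libraries (869 to 1071) and 875 ± 41.6 in knockdown libraries (840 to 944), a ratio of 0.882. The 7 lost peaks together went from 285 ± 17.1 to 141 ± 8.02 (ratio 0.493), the 2 gained peaks from 47.0 ± 10.2 to 74.1 ± 14.9 (ratio 1.58), and the 9 uncalled peaks were at 660 ± 65.0 and 660 ± 35.3. The directions of the first 2 sums follow from the calls. In share of all in-peak reads the cluster held 0.0891% in control and 0.0796% in knockdown libraries.

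The 24 peaks in the flanks, within 500 kb of the cluster but outside it, held 1 lost and 2 gained peaks with a median log2 fold change of -0.041. On chromosome 19 as a whole 201 of 1466 peaks were lost and 296 gained, with a median of -0.0025. The 10 Mb window that holds the cluster had a median of 0.019, and centring on it left the count of calls at 9. No test of the cluster against its surroundings was made.

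Within the batches, 2 cluster peaks were called in batch 1, both lost, where 6.61% of all peaks were lost and 5.38% gained. In batch 2 alone, 6 cluster peaks were lost and 1 was gained, where 13.1% of all peaks were lost and 12.8% gained. With edgeR these counts were 6 lost and 0 gained in batch 1 and 6 lost and 4 gained in batch 2. The share of all peaks that edgeR called within a batch was not computed, so these edgeR counts have no background beside them. Of the 18 peaks 14 had the same sign in both batches, and so had all 9 called peaks, which were called from both batches together. The share of all peaks with the same sign in both batches was not computed. The difference between the batches passed the test at no cluster peak (DESeq2 and edgeR), with 1 at an unadjusted p under 0.05 by each tool, where 2.51% of all peaks had such a p by DESeq2. The lowest unadjusted p was 0.0406 at peak 1, whose log2 fold change was -0.18 in batch 1 and 0.33 in batch 2.

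**Figure D4:**
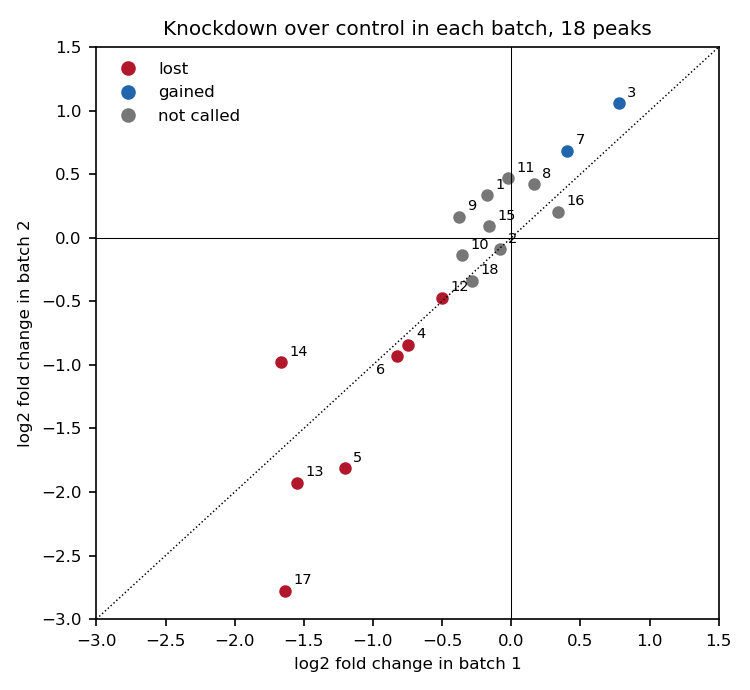
Log2 fold change (knockdown over control) of each of the 18 peaks in batch 1 (horizontal axis) and in batch 2 (vertical axis), with a dotted line where both are equal. The 7 lost peaks lie below 0 and the 2 gained peaks above 0 in both batches.

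One control library stood apart in the whole series, since its signal near gene ends, relative to the remaining libraries of its group, was 0.35 higher (log2) than elsewhere. The same measure ranged from -0.12 to -0.014 for the 5 remaining controls and from -0.17 to 0.19 for the knockdown. Without this library, control replicate 1, the cluster still had 9 calls, 7 lost and 2 gained, and peak 17 at the LILRA1 start had a log2 fold change of -2.12 (adjusted p = 7.4e-07).

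The binding near partners of the receptors was read from lists of genes chosen from textbook knowledge. Around 7 genes listed for inhibitory signalling (PTPN6, PTPN11, INPP5D, CSK, LYN, FGR and SYK) lay 37 peaks, of which 12 were lost and 4 gained. Their median log2 fold change was -0.26. These calls are 32.4% lost and 10.8% gained, beside 20.7% and 21.3% over all peaks. The counts include SYK, which also serves activating receptors and had 2 lost peaks among 3. None of the 2 peaks near PTPN6 (SHP-1) or of the 3 near PTPN11 (SHP-2), the phosphatases that ITIMs recruit, was called. At INPP5D, which encodes the phosphatase SHIP-1, 4 of 9 peaks were lost and 1 gained. At CSK, the kinase that restrains SRC family kinases, 2 of 5 were lost.

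LYN and FGR encode SRC family kinases, which phosphorylate ITIMs, and their peaks went different ways. Near LYN 4 of 8 peaks were lost and none gained, whereas near FGR 3 of 7 were gained and none lost. The smallest adjusted p of the list was at a peak within LYN, where the mean fell from 37.4 ± 7.92 to 12.02 ± 6.02 (log2 fold change -1.65 ± 0.26, adjusted p = 6.4e-09). The 10 Mb window around this LYN peak had a median of -0.38, lower than the -0.025 of all peaks.

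A further peak within FGR, chosen after its values were seen, went from 17.4 ± 3.82 to 42.5 ± 6.85 (log2 fold change 1.25 ± 0.22, adjusted p = 2.6e-07), with every knockdown library above every control library. Near SYK, a kinase that the activating adaptor FcRγ recruits, 2 of 3 peaks were lost. The stronger of these losses, also chosen afterwards, lay 26467 bp from SYK and fell from 20.8 ± 4.10 to 5.36 ± 1.61 (log2 fold change -2.06 ± 0.34, adjusted p = 1.9e-08). Whether a peak at that distance belongs to SYK was not tested. The peak nearest to SYK, 1647 bp away, was not called (log2 fold change 0.02 ± 0.30).

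Around the 3 activating adaptor genes lay 15 peaks, 4 lost and 4 gained (26.7% each, beside the same 20.7% and 21.3% over all peaks), with a median of -0.23. FCER1G, which encodes FcRγ, the partner of the LILRA receptors, had 3 lost and 2 gained peaks among 8. The peak with the smallest adjusted p (chr1:161185164-161186241), 29054 bp from FCER1G, fell from 123.5 ± 10.4 to 74.3 ± 8.76 (log2 fold change -0.73 ± 0.12, adjusted p = 1.2e-08). The peak over FCER1G itself (chr1:161216585-161218113), chosen after its values were seen, went the other way, from 77.3 ± 13.1 to 114.4 ± 8.19 (log2 fold change 0.55 ± 0.13, adjusted p = 7.8e-05), with every knockdown library above every control library. Whether the peak 29054 bp away belongs to FCER1G was not tested. TYROBP and HCST, which encode the adaptors DAP12 and DAP10, are neighbours and shared their 7 peaks, of which 1 was lost and 2 were gained.

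The 10 ligand genes had 26 peaks, 5 lost (19.2%) and 8 gained (30.8%), beside 20.7% and 21.3% over all peaks. Their median was -0.051. HLA-C, HLA-G and FN1 had no peak within 50 kb, and neither the 2 peaks near HLA-B nor the 1 near HLA-F was called. B2M, the light chain of MHC class I, had 2 lost peaks among 4 (log2 fold changes -0.55 and -0.78), in a 10 Mb window with a median of -0.24. APOE, named as a ligand of LILRB4, had 3 gained and no lost peaks among 8. The smallest adjusted p was at a peak 33823 bp from COL1A1, which encodes a chain of the collagen that LAIR1 binds (chr17:50147238-50150278), where the mean fell from 91.6 ± 16.3 to 28.6 ± 7.18 (log2 fold change -1.62 ± 0.16, adjusted p = 9.9e-22). Of the 6 peaks near COL1A1, however, this was the only one lost, and 3 were gained. The peak that overlapped the gene (chr17:50199823-50201214), chosen after its values were seen, went from 82.4 ± 20.3 to 108.6 ± 9.11 and was gained (log2 fold change 0.43 ± 0.13, adjusted p = 0.0043), with overlap between the groups. Whether a peak at such a distance belongs to COL1A1 was not tested.

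Other immunoglobulin-like receptor genes of the same stretch of chromosome 19 (14 of 15 listed could be placed) had 20 peaks, 12 of which were cluster peaks. Of the 8 outside the cluster none was lost and 1 was gained, near VSTM1, an inhibitory receptor gene (0.47 ± 0.14, adjusted p = 0.0035). Over all peaks 20.7% were lost and 21.3% gained, and 8 peaks are few to set beside these shares. PLAUR and ARG1, described downstream of LILRB4 in leukemia, had 12 peaks, 1 lost (8.3%) and 2 gained (16.7%). These are few peaks as well beside the same shares over all peaks. The lost one, within PLAUR (chr19:43663895-43664620), fell from 23.7 ± 3.63 to 9.25 ± 3.16 (log2 fold change -1.44 ± 0.29, adjusted p = 4.0e-06).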

How the data were processed

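RUNX1 ChIP-seq libraries of THP-1 cells with a PU.1 or scramble shRNA were compared. Reads were aligned by the authors with bowtie2 and freed of duplicates and of chromosomes other than the primary ones. Peaks were called with macs2 in each condition of each batch, filtered for reproducibility, merged and passed to featureCounts. What the authors deposited are raw counts for every peak and library, not normalized. Peak widths in the deposited table are other information and were not tested. Since the same libraries defined the peaks, these were not chosen independently of the groups. Depth is given as reads within peaks, and intervals cover the spread between libraries. No 2 libraries of a group agreed within sampling noise (chi-square per degree of freedom 1.29 to 2.24 over 30 pairs).

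The methods name a mouse build for these human cells. The coordinates were taken as GRCh38, since an end of a RefSeq protein-coding gene stood at most 1 kb from 24.4% of peaks, against 6.79% and 7.05% after a shift of all peaks by 100000 bp. Strands were taken from the promoter table, and exons, introns and sequence within peaks were not analysed here.

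The test was DESeq2 1.42.0 (R 4.3.3), as in the study's methods, over all 26642 peaks, with batch as a covariate, median-of-ratios size factors and Benjamini-Hochberg adjustment. A peak was called at an adjusted p under 0.05 and a fold change over 1.1. Each batch was also tested alone, and a product term tested whether batches differed. Alternatives were edgeR 4.0.16 (quasi-likelihood), other size factors, filters, thresholds and windows, no batch term, a replicate block, and leaving out each library. Tools were tested on simulated counts. Named were the peaks over or nearest each gene, all called peaks, the 3 strongest uncalled peaks, the call with the smallest adjusted p of each list, and the 5 genes most like the cluster. Peaks outside this rule are peak 16 of the cluster and those marked as chosen afterwards. The lost peaks near B2M and the gained peak near VSTM1 are outside it too. A few planned items of the lists are not reported here, and the counts of the lists leave them out. The members and the lists were chosen with earlier results of these data known.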

Additional observations from a re-analysis of the deposited data

Results flagged for a closer look

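Each group of 6 libraries was searched for a highest or lowest library that stood far from the others, at the 18 peaks and in their sum (38 groups in 19 measures). Of these groups 3 had one, and chance gives about 1 in 20. In the gained peak 3 near LILRA6, control replicate 4 was at a normalised count of 22.5, with the next control library at 12.1 and the lowest at 7.03. In peak 10 over the outer LAIR1 start, knockdown replicate 3 was at 105.7, with the next at 94.1 and the lowest at 88.2. In peak 17 at the LILRA1 start, knockdown replicate 1 was at 11.9, with the next at 3.95 and the lowest at 1.19, and without it the log2 fold change was -2.71 (adjusted p = 7.6e-09, DESeq2) in place of -2.24.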

How the results depend on the processing

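The 9 calls of the cluster (7 lost, 2 gained) numbered 9 as well with edgeR, with TMM or total counts as size factors, without a batch term, without independent filtering, after centring on the 10 Mb window and within 100 kb of the genes. They numbered 8 at an adjusted p under 0.01, 7 within 10 kb, 6 with at least 10 counts in every library, which leaves out the weakest peaks, and 4, all lost, at a fold change over 2. Leaving out each library gave 8 to 10. The share of all peaks called was computed for DESeq2 (both batches together and each alone) and for edgeR over both batches. It was not computed for the other fits, filters and thresholds, so counts at those settings have no background beside them. The called peaks 4, 5, 6, 12, 13, 14 and 17 kept their call under every left-out library. In batch 1 the 2 calls became 6 with edgeR and 0 to 2 with a library left out, with 0 without control replicate 3, knockdown replicate 1 or knockdown replicate 2 and 1 without control replicate 2. In batch 2 the 7 calls became 10 (6 lost, 4 gained in place of 6 and 1) with edgeR and 3 to 7 with a library left out, the lowest being 3 without control replicate 5 and 4 without control replicate 6. The median log2 fold change of the cluster lay between -0.23 and -0.13 with a library left out. The uncalled peak 15, at -0.028, turned to 0.040 with at least 10 counts in every library and lay between -0.14 and 0.082 with a library left out. Likewise, uncalled peak 9 lay between -0.19 and 0.00031 and uncalled peak 1 between -0.012 and 0.21.

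Libraries with the same replicate number did not deviate together (correlations of -0.18, -0.18, -0.055, -0.00059, -0.018 and -0.078), so the number names a library only. With the replicate number as a block together with batch, 6 cluster peaks were called, all lost, without peaks 3 (adjusted p = 0.146), 7 (adjusted p = 0.226) and 12 (adjusted p = 0.106), and peak 15 was at 0.020. Single peaks carried few reads, and a peak that was not called is not shown to be unchanged.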

Other observations

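As a description over the 12 RUNX1 libraries, the summed normalised count of the cluster was set beside that of 8395 protein-coding genes outside chromosome 19 with at least 3 peaks within 50 kb. The genes most alike on the log2 scale were MAPRE2 (Pearson r = 0.933), KCNQ1 (0.930), KNTC1 (0.918), LLPH (0.916) and CDH13 (0.915). The points share their libraries and size factors, and these are the highest of many values.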
